A study of Mus musculus with 60 samples.

Results

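This report follows the control kidney across the onset of darkness: the 5 control libraries collected at zeitgeber time (ZT) 12, the moment the lights went off, were compared with the 5 collected at ZT16, 4 h into the dark phase. They were taken by their genotype and time labels and make up 10 of the 60 kidney RNA-seq libraries of the series, which covers 2 genotypes at 6 times of day. Control mice were male Bmal1lox/lox littermates on a C57BL/6J background that lacked the Pax8-rtTA and LC1 transgenes, the pair that drives Cre recombinase in renal tubule cells of the knockout group, called cKOt. Both genotypes drank doxycycline at 2 mg/ml with 20 mg/ml sucrose for 2 weeks from 8 weeks of age, so the control animals carried the floxed alleles and had the drug, but no Cre. Kidneys were taken 4 weeks after the drug ended. The mice lived under 12 h light and 12 h dark with free access to food, and each library came from 1 mouse. The labels name the tissue renal tubule, whereas the study's methods describe frozen pieces of whole kidney tissue, and markers of podocytes, endothelium and fibroblasts were all present. The study kept 5 of 6 mice per group after a screen on RNA quality and clustering, so the kept libraries were chosen in part on their expression.

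The circadian clock is a feedback loop of transcription factors that runs in nearly every cell. BMAL1 (encoded by Arntl) pairs with CLOCK or NPAS2 and switches on the Per and Cry repressors, the nuclear receptors REV-ERBα and REV-ERBβ (Nr1d1 and Nr1d2) and output factors such as DBP. The REV-ERB proteins hold Arntl, Npas2, Nfil3 and Cry1 down, while the ROR proteins activate the same genes. Mice are active and feed mainly in the dark, so the hours after lights off bring food, a rise in body temperature and a change in circulating hormones, and kidney tubules adjust transport of salt, water and nutrients over the day.

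Of 15546 genes tested, 1623 differed between ZT16 and ZT12 at an adjusted p under 0.05 (edgeR quasi-likelihood test, Benjamini-Hochberg adjustment), which is 10.4% of the genes tested. With 5 mice in each group, p-values measured the spread between mice left after 2 factors of unwanted variation, taken over all 12 groups. A fit of the 10 libraries alone, without those factors, called 538 genes. At ZT16, 787 genes (5.06%) were higher and 836 (5.38%) were lower. Most called changes were modest, and the median of their absolute log2 values was 0.30. At least a 1.5-fold change was reached by 275 called genes (1.77%), 150 of them higher (0.965%) and 125 lower (0.804%). At least 2-fold was reached by 49 higher (0.315%) and 36 lower (0.232%) genes. In 1077 genes (6.93%) the CPM of the groups did not overlap, with ZT16 above in 539 (3.47%) and below in 538 (3.46%). The median log2 fold change over all genes tested was -0.000128. Without the 2 libraries that stood apart (described next), 1072 genes were called, 564 higher and 508 lower. Levels are given throughout as CPM, the read count relative to the library size scaled with edgeR's TMM factors, and not divided by gene length, so they compare 1 gene between libraries and not one gene with another. A gene is said to have risen or fallen only where it passed the test.

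**Figure D1:**
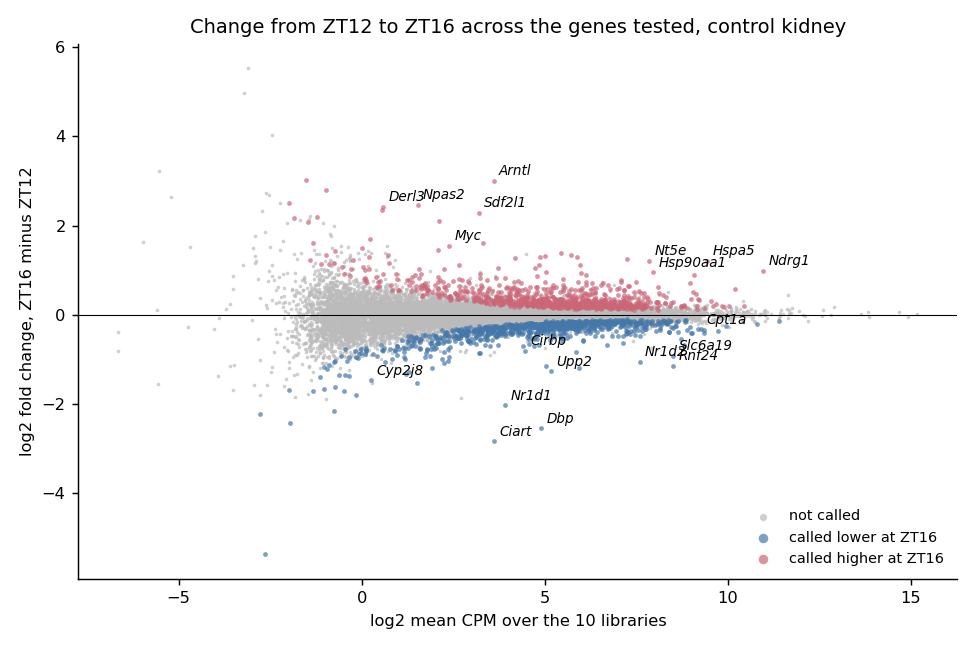
Log2 fold change from ZT12 to ZT16 (vertical axis) against the log2 mean CPM over the 10 control libraries (horizontal axis), 1 point per gene, coloured by the call at an adjusted p under 0.05. The named genes at the edges include the clock genes Arntl (3.00) and Ciart (-2.83), and the strongly expressed Ndrg1 and Hspa5 on the higher side and Rnf24 on the lower side. Above a few CPM, most called genes lie close to 0.

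The 10 libraries held between 18145854 and 19597225 counts assigned to genes, a narrow range, and the TMM factors ran from 0.908 to 0.981. Replicates differed by 6.62 to 35.4 times the variance expected from counting alone, so no pair was a repeat of the same library. Control ZT16 replicate 1 differed by 23.4 to 35.4 times the counting variance from its group, and control ZT12 replicate 4 by 15.8 to 20.1 times from its own. These were the 2 libraries farthest out on the first factor of unwanted variation (-2.77 and 1.93). The table of sample selection that accompanies the study lists a batch for each library. The ZT12 mice came from batches 2, 4, 5, 6 and 3, and the ZT16 mice from batches 1, 6, 2, 3 and 6, so only batches 2, 3 and 6 held both times. Within them, the CPM difference had the sign of the fitted change for 1585, 1588 and 1489 of the 1623 called genes. These are the same libraries as in the fit, so these counts describe them and are not an independent check.

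Summed marker genes of 17 of 18 cell types overlapped between the times in their range over libraries, and neutrophil markers were below the filter in all. Proximal tubule markers summed to between 14837 and 17490 CPM at ZT12 and between 14215 and 18544 CPM at ZT16. Collecting duct principal cell markers ran from 189 to 253 CPM at ZT12 and from 212 to 351 CPM at ZT16, and fibroblast and mural cell markers from 111 to 208 CPM and from 136 to 247 CPM. Of the adrenal cortex markers, 4 of 5 were not retained. In bulk kidney, fewer cells of a type and less RNA per cell cannot be told apart.

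Among genes with a mean of at least 1 CPM, the largest rise (Arntl) and the largest fall (Ciart) were both in clock genes. Among the activators, 4 of 5 tested rose and 0 fell, against 5.06% of all genes called higher and 5.38% called lower. Among the repressors 1 rose and 6 fell of 10, among the PAR bZIP output factors with Nfil3 1 rose and 2 fell of 4, and among genes of clock protein turnover 1 rose and 4 fell of 9. Median log2 fold changes of these lists were 0.60, -0.90, -0.38 and -0.15. Leaving out the 2 libraries that stood apart changed these counts in 1 place, with 0 rising in the turnover list.

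Start-site windows of 4 clock genes are shown because their 300 bases hold letters of known clock motifs. Arntl and Nfil3 rose over the 4 h, and Ciart and Per1 fell. These 4 are the called clock genes with the largest changes whose window holds at least 1 of the motifs searched. Windows of Bhlhe41, Per3, Cry1 and Tef also held a match. Those of Dbp, Npas2, Nr1d1, Nr1d2, Clock, Usp2, Fbxl21 and Fbxw11 held 0, as did a second Per1 window. Of these, Dbp, Npas2 and Nr1d1 changed more than Nfil3 or Per1. Each window runs from 250 bases before to 50 bases after a RefSeq transcript start (build GRCm38.p6), is written 5′ to 3′ on the gene's strand, and has the motif letters in capitals. The motifs were searched on both strands, with N standing for any base. They were the E-box CACGTG bound by BMAL1 with CLOCK and the D-box TTANGTAA bound by DBP and NFIL3. The ROR element, the site of REV-ERB and ROR proteins, was searched by the letters TNGGTCA alone, and not every match need be such a site. Also searched were the glucocorticoid response element (GNACA and TGTNC, 3 bases apart) and the heat shock element GAANNTTC.
The Arntl window lies at chr7:113207261-113207560 (plus strand, 3 ROR element matches), that of Ciart at chr3:95882179-95882478 (minus strand, 3 E-box matches), that of Nfil3 at chr13:52980990-52981289 (minus strand, 1 ROR element match) and that of Per1 at chr11:69098699-69098998 (plus strand, 1 E-box match).
Arntl: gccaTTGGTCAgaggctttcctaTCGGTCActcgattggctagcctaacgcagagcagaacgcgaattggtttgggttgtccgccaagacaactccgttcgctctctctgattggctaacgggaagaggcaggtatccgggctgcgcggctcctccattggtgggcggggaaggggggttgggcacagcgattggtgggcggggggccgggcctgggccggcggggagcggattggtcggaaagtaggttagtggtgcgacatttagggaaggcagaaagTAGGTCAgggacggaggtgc
Ciart: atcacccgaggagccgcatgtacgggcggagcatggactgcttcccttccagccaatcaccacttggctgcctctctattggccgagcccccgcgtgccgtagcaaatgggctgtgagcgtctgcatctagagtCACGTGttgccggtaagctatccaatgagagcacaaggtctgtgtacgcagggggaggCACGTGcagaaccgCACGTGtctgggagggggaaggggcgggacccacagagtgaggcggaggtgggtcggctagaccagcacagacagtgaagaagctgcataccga
Nfil3: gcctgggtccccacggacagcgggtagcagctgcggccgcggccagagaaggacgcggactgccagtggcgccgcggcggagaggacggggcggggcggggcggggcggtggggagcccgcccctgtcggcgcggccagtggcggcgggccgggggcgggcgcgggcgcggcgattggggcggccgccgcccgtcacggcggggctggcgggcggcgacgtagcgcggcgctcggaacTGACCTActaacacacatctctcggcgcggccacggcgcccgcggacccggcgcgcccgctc
Per1: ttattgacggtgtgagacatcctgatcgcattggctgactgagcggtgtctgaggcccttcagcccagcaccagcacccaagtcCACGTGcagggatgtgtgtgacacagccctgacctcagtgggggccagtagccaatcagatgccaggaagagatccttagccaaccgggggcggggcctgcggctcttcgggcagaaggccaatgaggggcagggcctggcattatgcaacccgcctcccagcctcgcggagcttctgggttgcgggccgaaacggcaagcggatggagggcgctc
The short motifs are common. Of 32851 windows in the table, 7.15% hold an E-box, 2.32% a D-box, 11.0% a ROR element, 0.475% a glucocorticoid response element and 7.86% a heat shock element. Windows were present for 626 of the genes called higher and 660 of those called lower, and the E-box was found for 12.3% and 13.9% of them, beside 11.4% of the 11416 tested genes with a window. The ROR element stood in 12.8% and 13.5%, beside 11.7%, and the heat shock element in 7.03% and 7.42%, beside 7.16%. For the D-box the shares were 1.60% and 2.58%, beside 1.96%. The glucocorticoid response element was found for 2 of the genes called higher (0.319%) and 9 of those called lower (1.36%), beside 0.464% of the tested genes. A match is a match of letters and not evidence of binding, and these shares were not tested.

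Arntl, the core activator (ENSMUSG00000055116, chr7:113207465-113314126, GRCm38, plus strand), rose more than any other gene with a mean of at least 1 CPM. Its levels at ZT12 were 2.32, 1.93, 5.51, 2.12 and 1.97 CPM in replicates 1 to 5, and at ZT16 12.0, 14.1, 16.3, 36.5 and 28.4 CPM. The groups did not overlap, with ZT12 replicate 3 the highest of its group and ZT16 replicates 4 and 5 the highest of theirs. The mean went from 2.77 ± 1.54 to 21.5 ± 10.6 CPM (SD, n = 5 each), an 8.00-fold rise (log2 fold change 3.00, SE 0.26, adjusted p = 1.7e-12). Npas2, which can replace CLOCK as partner of BMAL1, was low at ZT12 and rose 5.53-fold, from 0.863 ± 0.299 to 4.88 ± 2.37 CPM (log2 fold change 2.47, SE 0.38, adjusted p = 6.7e-06). Its ZT12 libraries read 0.755, 1.02, 1.29, 0.517 and 0.731 CPM and its ZT16 libraries 3.17, 3.28, 4.13, 4.92 and 8.92 CPM, without overlap. Clock rose less (log2 fold change 0.47, SE 0.096, adjusted p = 5.8e-04), its libraries overlapped, and it did not pass without the unwanted-variation factors. For Rora the log2 fold change was -0.11 and the test was not passed.

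Of the repressors, Ciart, Nr1d1, Nr1d2, Per1, Per3 and Bhlhe41 fell and Cry1 rose. Ciart, a repressor of the BMAL1 complex also known as Chrono, read 28.1, 23.7, 12.9, 23.5 and 19.0 CPM at ZT12 and 2.79, 5.39, 3.10, 1.58 and 2.03 CPM at ZT16. All ZT16 libraries were far below all ZT12 libraries, a 7.13-fold fall (log2 fold change -2.83, SE 0.28, adjusted p = 3.0e-10). Nr1d1, encoding REV-ERBα, read 32.9, 29.8, 13.2, 17.6 and 24.6 CPM at ZT12 and 7.46, 8.90, 5.45, 6.15 and 4.75 CPM at ZT16, again without overlap (log2 fold change -2.03, SE 0.24, adjusted p = 2.3e-08). This gene shares its 3′ end with Thra on the opposite strand, and the strand setting of the counting is not given in the sources used here. Nr1d2, encoding REV-ERBβ, was the more strongly counted of the pair and went from 264 ± 24.0 to 120.5 ± 25.9 CPM (log2 fold change -1.06, SE 0.14, adjusted p = 1.4e-07). All 5 ZT16 libraries were below all 5 ZT12 libraries for both genes.

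The 3 Per genes, whose proteins close the loop by inhibiting BMAL1, behaved differently. Per1 read 49.8, 46.0, 48.5, 37.6 and 34.4 CPM at ZT12 and 28.0, 22.2, 23.9, 17.0 and 21.1 CPM at ZT16, a 2.21-fold fall (log2 fold change -1.14, SE 0.22, adjusted p = 1.9e-04). Per3 went from 74.2 ± 5.38 to 42.3 ± 10.8 CPM (log2 fold change -0.83, SE 0.15, adjusted p = 6.5e-05). Per2 was at 92.5, 126, 98.5, 90.9 and 89.2 CPM and then at 126, 112, 104, 85.2 and 75.2 CPM, with no difference passing the test (log2 fold change -0.026, SE 0.15, adjusted p = 0.95). Its sign depended on the fit. Among the other repressors, Cry1 rose from 10.5, 13.1, 15.9, 14.5 and 13.0 CPM to 22.4, 19.9, 21.3, 24.5 and 23.2 CPM (log2 fold change 0.74, SE 0.11, adjusted p = 2.3e-06), and every ZT16 library was above every ZT12 library. Cry2 (-0.18, adjusted p = 0.062) and Bhlhe40, the DEC1 repressor (0.21, adjusted p = 0.46), did not pass, while Bhlhe41, or DEC2, fell (-0.98, adjusted p = 0.0029).

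**Figure D2:**
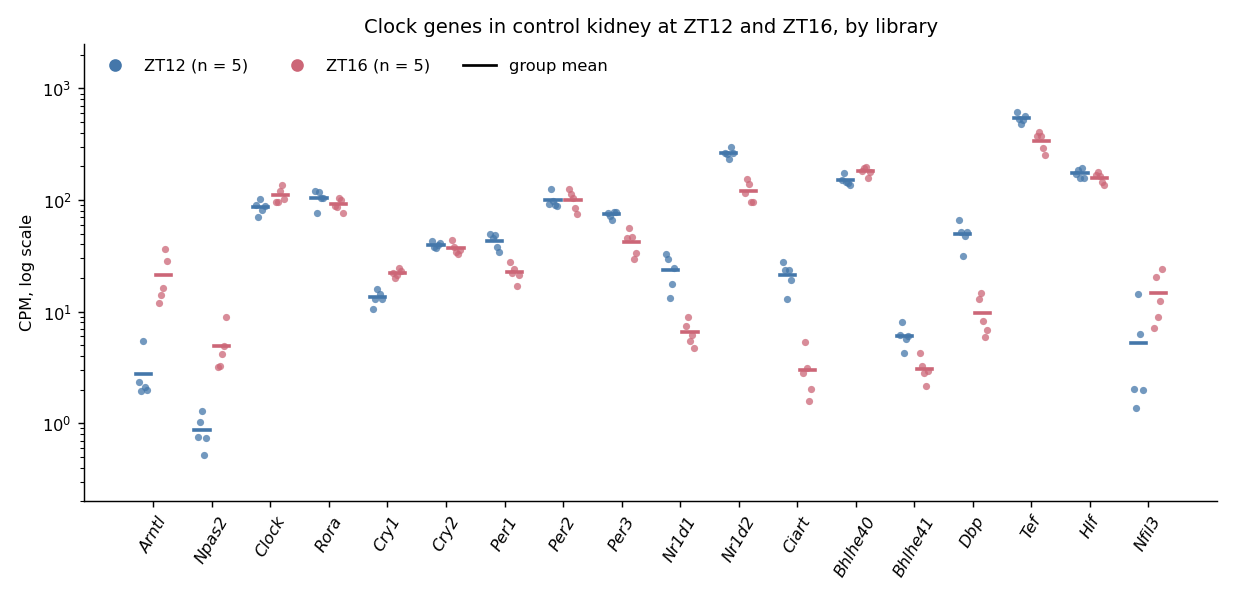
CPM on a log scale for clock genes (horizontal axis) in each of the 5 ZT12 and 5 ZT16 control libraries; points are libraries and bars are group means. Arntl, Npas2 and Cry1 lie higher at ZT16 without overlap, Ciart, Dbp, Nr1d1, Nr1d2, Per1, Per3 and Tef lie lower without overlap, and Per2, Hlf, Cry2 and Rora overlap.

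Of the output factors, Dbp, a PAR bZIP activator of D-box genes (chr7:45705088-45710203), read 65.9, 51.3, 31.5, 47.8 and 51.4 CPM at ZT12 and 13.1, 14.6, 8.32, 5.97 and 6.78 CPM at ZT16. The 2 groups were far apart and the fall was 5.86-fold (log2 fold change -2.55, SE 0.19, adjusted p = 2.8e-14). Tef, of the same family and by far the most strongly counted of these genes, fell less, from 544 ± 50.5 to 341 ± 64.8 CPM (log2 fold change -0.68, SE 0.092, adjusted p = 4.0e-07). Hlf, the third member, was at 173 ± 16.0 CPM at ZT12 and 158 ± 17.2 CPM at ZT16 and did not pass (-0.073, adjusted p = 0.64). Nfil3, the repressor that competes with these factors for D-boxes, read 2.03, 1.36, 14.5, 6.32 and 1.97 CPM at ZT12 and 7.19, 20.4, 8.95, 12.4 and 24.2 CPM at ZT16. It rose (log2 fold change 1.60, SE 0.34, adjusted p = 8.8e-04), although the groups overlapped through ZT12 replicate 3, and without that library the log2 fold change was 2.47.

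Genes of clock protein turnover changed by smaller steps. The deubiquitinase Usp2 fell from 203 ± 13.2 to 149 ± 18.8 CPM (log2 fold change -0.46, SE 0.097, adjusted p = 8.9e-04) and the ubiquitin ligase subunit Btrc, which marks PER proteins for decay, fell with it (-0.30, adjusted p = 0.0029). Fbxw11, its paralogue (-0.17, adjusted p = 0.012), and the F-box gene Fbxl21 (-0.51, adjusted p = 0.02) also fell, but the adjusted p was 0.059 for Fbxw11 without ZT16 replicate 5 and 0.064 for Fbxl21 without ZT16 replicate 4. Csnk1d, a kinase of PER proteins, rose slightly (0.13, adjusted p = 0.015), with an adjusted p of 0.060 without ZT12 replicate 1. Timeless (-0.10), Csnk1e (0.12) and Gsk3b (0.15) did not pass.

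Of the 19 called genes in these 4 lists, ZT12 replicate 3 was the ZT12 library nearest to the ZT16 levels in 15, and no other ZT12 library was nearest in more than 2. At ZT16, replicate 2 was nearest to the ZT12 levels in 10 and replicate 1 in 6. ZT12 replicate 3 came from batch 5, which held no ZT16 library.

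The 35 lists and their members were chosen with earlier results of these data known. Among them, that of endoplasmic reticulum (ER) folding had the largest share of called members in edgeR's test. It holds the lumenal chaperones, disulphide isomerases and degradation factors that fold and clear secretory proteins and that rise in the unfolded protein response. Of 24 tested, 20 rose and 0 fell (background 5.06% higher), all 24 had a positive log2 fold change, and the median was 0.49. In 17 every ZT16 library lay above every ZT12 library (background 3.47%). The count was the same, 20, without the 2 libraries that stood apart. It was 18 without the unwanted-variation factors, 18 with batch in their place and 15 in a fit of the 10 libraries alone.

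Hspa5 (BiP), the central ER chaperone, read 361, 579, 427, 445 and 332 CPM at ZT12 and 910.1, 902, 821, 918 and 1196 CPM at ZT16, with ZT12 replicate 2 the highest of its group and ZT16 replicate 5 the highest of all. It rose 2.31-fold (log2 fold change 1.21, SE 0.15, adjusted p = 4.8e-08). Hsp90b1 (GRP94) went from 401 ± 52.4 to 683 ± 109 CPM (log2 fold change 0.89, SE 0.11, adjusted p = 3.2e-08) and the lectin chaperone Calr from 381 ± 55.5 to 619 ± 70.5 CPM (log2 fold change 0.72, SE 0.10, adjusted p = 1.4e-06). These 3 were among the 6 most strongly counted genes that changed at least 1.5-fold. The largest relative changes were in genes with lower counts. Sdf2l1, an Hspa5 cofactor, read 3.31, 4.36, 2.92, 2.70 and 2.08 CPM at ZT12 and 17.3, 12.6, 9.18, 15.2 and 22.2 CPM at ZT16 (log2 fold change 2.29, SE 0.24, adjusted p = 5.6e-10). Creld2 (1.39, adjusted p = 1.3e-07) and Manf (1.30, adjusted p = 4.8e-08), both secreted or ER-resident stress proteins, rose by more than 2-fold. Derl3, a factor of ER-associated degradation that was named by the size of its rise and not by the list, rose from 0.490 ± 0.107 to 2.51 ± 1.11 CPM (log2 fold change 2.42, SE 0.42, adjusted p = 4.6e-05). Targets of ATF4, the amino acid stress branch, gave 1 rise and 0 falls among 12 tested (median 0.11). That share, 8.33% called, lies near the 10.4% of all genes tested. The gene that rose was Psat1 of serine synthesis (0.52, adjusted p = 0.0016).

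Cytosolic heat shock chaperones, which respond to heat shock factor 1 and to body temperature, rose in 13 of 20 tested (background 5.06%) and fell in 0 (median 0.42). The count was 11 without the 2 libraries that stood apart and 7 in a fit of the 10 libraries alone. Hsp90aa1, the inducible cytosolic HSP90, read 146, 246, 164, 167 and 149.9 CPM at ZT12 and 313, 326, 278, 404 and 301 CPM at ZT16. No ZT16 library fell within the ZT12 range, in which replicate 2 was the highest (log2 fold change 0.95, SE 0.12, adjusted p = 1.4e-07). The cochaperones Chordc1 (0.66, adjusted p = 2.7e-06) and Hspa4l (0.71, adjusted p = 7.2e-07) rose as well. Hspa1a, the strongly inducible HSP70, read 3.95, 22.1, 2.98, 3.04 and 4.61 CPM at ZT12 and 10.5, 5.28, 5.85, 5.27 and 3.03 CPM at ZT16 and did not pass (-0.39, adjusted p = 0.53). ZT12 replicate 2 alone set the sign of that difference, which was 0.59 without it, and reads of Hspa1a may be shared with its near-identical copy Hspa1b.

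Cirbp, an RNA-binding protein induced by mild cold, moved the other way, from 36.8, 17.7, 30.8, 23.9 and 24.4 CPM at ZT12 to 22.8, 14.6, 16.2, 14.9 and 20.0 CPM at ZT16. Its groups overlapped but the fall passed the test (log2 fold change -0.81, SE 0.16, adjusted p = 4.1e-04), though not in the fit of the 10 libraries alone. Rbm3, the second cold-inducible gene, was at 63.3 ± 4.604 CPM at ZT12 and 54.4 ± 5.22 CPM at ZT16 and did not pass (-0.21, adjusted p = 0.24).

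**Figure D3:**
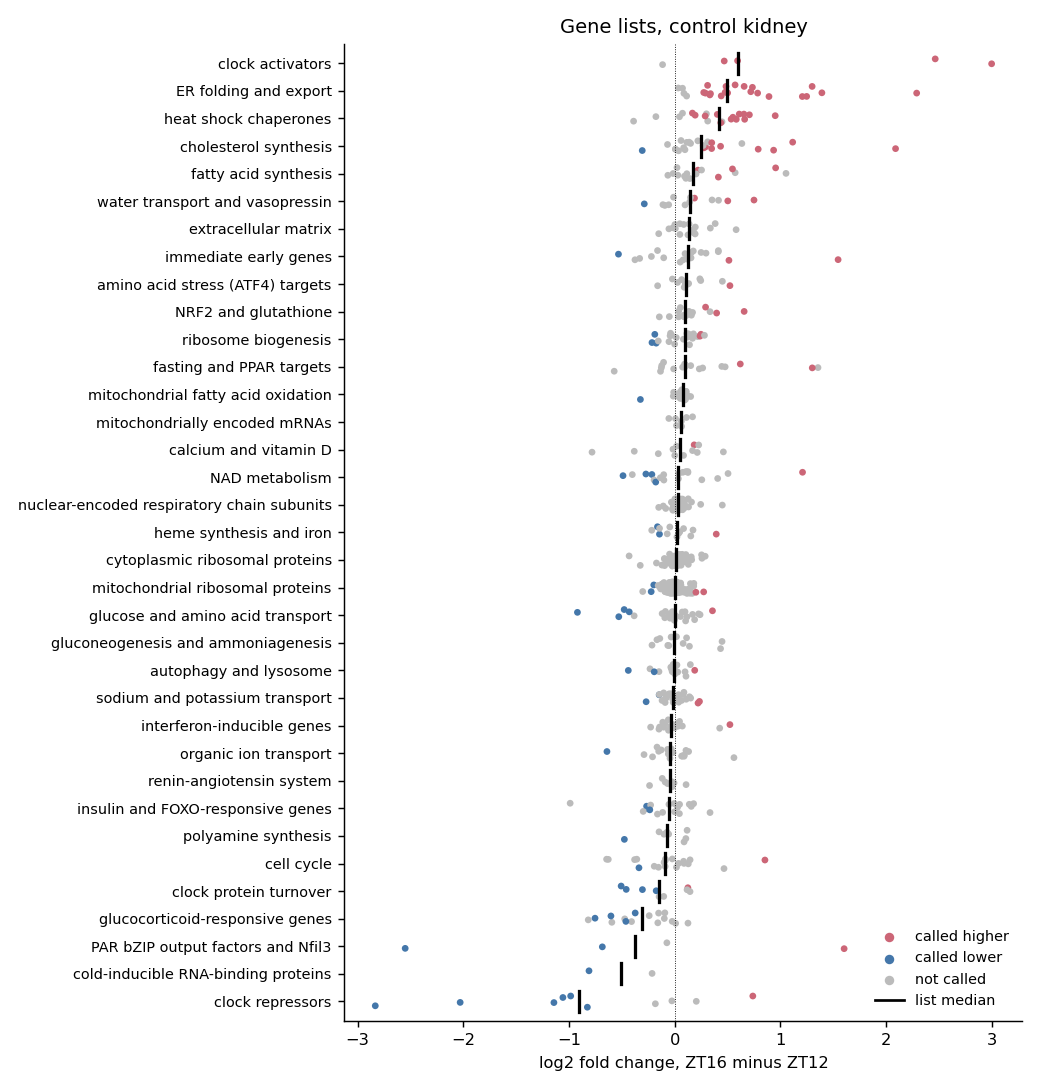
Log2 fold change from ZT12 to ZT16 (horizontal axis) of each tested member of 35 gene lists (vertical axis, ordered by list median); points are genes coloured by the call and black bars are list medians. The ER folding list sits to the right of 0 as a whole (median 0.49), as do most heat shock chaperones (median 0.42), while ribosomal protein and respiratory chain lists are centred close to 0 with few or no called members.

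Lipid synthesis genes under the control of SREBP factors, which respond to sterols and insulin, gave 9 rises and 1 fall among 24 cholesterol genes (median 0.24), and 4 rises and 0 falls among 16 fatty acid genes (median 0.17), beside 5.06% higher and 5.38% lower over all genes tested. Insig1, the sterol-regulated retention factor of SREBP, read 50.8, 36.6, 35.8, 43.1 and 53.9 CPM at ZT12 and 58.0, 68.7, 89.1, 87.4 and 113 CPM at ZT16. The groups did not overlap, and the mean went from 44.0 ± 8.14 to 83.2 ± 21.0 CPM (log2 fold change 0.94, SE 0.17, adjusted p = 8.1e-05). Sc5d was the member that fell (-0.31, adjusted p = 2.0e-04). Without the 2 libraries that stood apart the cholesterol list had 11 rises and 1 fall, and in the fit of the 10 libraries alone 8 rises and 1 fall.

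Srebf1, encoding SREBP1, read 23.4, 15.3, 21.6, 12.9 and 20.8 CPM at ZT12 and 74.5, 39.99, 38.0, 40.4 and 38.8 CPM at ZT16. All ZT16 libraries were higher, and replicate 1 was by far the highest (log2 fold change 0.96, SE 0.14, adjusted p = 1.4e-06). The desaturase Scd2 rose from 114 ± 7.14 to 172 ± 7.96 CPM (log2 fold change 0.55, SE 0.094, adjusted p = 4.3e-05). Fasn, the fatty acid synthase, was at 66.7, 59.1, 54.3, 37.2 and 49.8 CPM and then at 152, 73.3, 86.6, 88.6 and 88.2 CPM, a separation that did not pass in the fit with unwanted-variation factors (0.57, adjusted p = 0.12) but did without them, where the log2 fold change was 0.87.

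Fasting and PPAR targets gave 2 rises and 0 falls among 18 (median 0.099), a share of 11.1% called that lies near the 10.4% of all genes tested. One was Pdk4, the kinase that holds back pyruvate oxidation, which read 14.2, 15.0, 20.2, 19.1 and 15.6 CPM at ZT12 and 22.8, 34.6, 33.9, 46.3 and 69.2 CPM at ZT16 (log2 fold change 1.30, SE 0.33, adjusted p = 0.0055). The ZT16 libraries were widely spread but all lay above the ZT12 group. Of 18 genes of mitochondrial fatty acid oxidation, Cpt1a, the entry step, fell from 679.7 ± 55.5 to 551 ± 38.6 CPM (log2 fold change -0.32, SE 0.071, adjusted p = 0.0013) and no other member was called. Insulin and FOXO-responsive genes gave 0 rises and 3 falls among 19 (15.8% called, background 10.4%), among them the autophagy gene Gabarapl1 (-0.27, adjusted p = 0.0062). In gluconeogenesis and ammoniagenesis 0 of 12 were called by edgeR, DESeq2 or limma-trend, and 1 had an unadjusted p under 0.05 (edgeR). Pck1, its control enzyme, was at 3158, 2949.6, 2382, 2408 and 2599 CPM at ZT12 and 2714, 4018, 3952, 4109 and 3970.0 CPM at ZT16, with replicate 1 the only ZT16 library within the ZT12 range (0.43, adjusted p = 0.14). In the fit of the 10 libraries alone Pck1 passed, with a log2 fold change of 0.48.

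Transport genes changed in both directions. In the list of glucose and amino acid transporters 1 rose and 4 fell of 24 (background 5.06% higher and 5.38% lower; median -0.000731). Slc6a19, the apical B0AT1 carrier that takes up neutral amino acids in the proximal tubule, read 481, 444, 423, 561 and 476 CPM at ZT12 and 269, 262, 270.4, 235 and 222 CPM at ZT16. Its 2 groups were well apart, with a 1.89-fold fall (log2 fold change -0.92, SE 0.11, adjusted p = 4.8e-08). Slc6a18, its close relative in the proximal tubule, rose from 522 ± 43.9 to 651 ± 68.6 CPM (log2 fold change 0.36, SE 0.088, adjusted p = 0.0048). Slc2a9, a urate carrier (-0.53, adjusted p = 2.9e-05), and Slc7a7, the basolateral exporter of cationic amino acids (-0.48, adjusted p = 0.003), fell.

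Sodium and potassium transport gave 2 rises and 2 falls among 26 tested, with a median of -0.016, and the 15.4% called lies near the background of 10.4%. The apical exchanger Slc9a3 (NHE3) fell from 227 ± 11.9 to 189 ± 23.0 CPM (log2 fold change -0.27, SE 0.075, adjusted p = 0.013), but its adjusted p was 0.061 without ZT16 replicate 4 and 0.075 without replicate 5. The potassium channel gene Kcnj10 rose (0.24, adjusted p = 0.013), with an adjusted p of 0.077 without ZT12 replicate 1. Water transport and vasopressin genes gave 3 rises and 1 fall among 13 (30.8% called). Avpr2, the V2 receptor through which vasopressin acts on the collecting duct, read 15.2, 12.0, 13.2, 10.7 and 12.5 CPM at ZT12 and 23.6, 19.2, 19.0, 20.7 and 17.8 CPM at ZT16 (log2 fold change 0.50, SE 0.091, adjusted p = 9.7e-05). Every ZT16 library was above every ZT12 library. Summed collecting duct markers ran from 189 to 253 CPM at ZT12 and from 212 to 351 CPM at ZT16, and their part in the Avpr2 result was not tested. Avpr1a, the V1a receptor, rose too, from 4.17 ± 0.359 to 7.16 ± 2.25 CPM (log2 fold change 0.75, SE 0.15, adjusted p = 5.7e-04). Organic ion transporters gave 0 rises and 1 fall of 19, calcium and vitamin D genes 1 rise and 0 falls of 12, and the renin-angiotensin system 0 of 8 called by edgeR, DESeq2 or limma-trend, with 0 at an unadjusted p under 0.05.

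Nt5e, or CD73, the ectoenzyme that makes adenosine from AMP, read 115, 174, 153, 143 and 128 CPM at ZT12 and 244, 247, 365, 436 and 293 CPM at ZT16. The groups did not overlap and it rose 2.31-fold (log2 fold change 1.21, SE 0.13, adjusted p = 2.1e-09). In the NAD list, in which Nt5e was counted, 1 gene rose and 4 fell of 19 (26.3% called, background 10.4%), and 1 fell without the unwanted-variation factors, with batch in their place or in the 10 libraries alone. Nmrk1, a nicotinamide riboside kinase, fell most (-0.49, adjusted p = 0.0052; 0.053 without the 2 libraries that stood apart), and Nampt did not pass (-0.10, adjusted p = 0.28). Slc16a1, the monocarboxylate carrier MCT1, read 26.0, 32.8, 37.3, 30.3 and 26.5 CPM at ZT12 and 56.1, 59.2, 69.6, 87.1 and 97.1 CPM at ZT16 (log2 fold change 1.34, SE 0.17, adjusted p = 4.8e-08), again without overlap. A related carrier, Slc16a6, rose by nearly the same factor (log2 fold change 1.31, SE 0.16, adjusted p = 2.4e-08). Among genes of the NRF2 pathway 3 of 16 rose (background 5.06%) and 0 fell: Txnrd1 (0.40, adjusted p = 5.0e-06), Srxn1 (0.29, adjusted p = 0.0035) and Hmox1 (0.66, adjusted p = 0.015; 0.064 without ZT12 replicate 1). Of iron and heme genes 1 rose and 2 fell of 13 (background 5.06% higher and 5.38% lower), and the gene that rose was the transferrin receptor Tfrc (0.39, adjusted p = 0.0023).

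Glucocorticoid-responsive genes follow corticosterone, which in mice is high around the onset of darkness. Of 16 tested 0 rose and 4 fell (background 5.38% lower), with a median of -0.31. The count of falls was 1 without the unwanted-variation factors, with batch in their place and in the 10 libraries alone, with medians of -0.26 in each. The metallothionein genes Mt1 (-0.60, adjusted p = 0.0069) and Mt2 (-0.75, adjusted p = 0.013) were among those that fell. Neither passed without the factors, with batch in their place or in the 10 libraries alone. Without the factors their log2 fold changes were -0.25 and -0.50 (adjusted p = 0.56 and 0.23, edgeR). Without ZT12 replicate 1 their adjusted p-values were 0.055 and 0.059, and within batch 6 the log2 differences were 0.10 and 0.084, of opposite sign. Sgk1, the kinase that raises sodium transport, did not pass (-0.16, adjusted p = 0.69).

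Immediate early genes, which report acute stimulation including that of handling, gave 2 rises and 1 fall among 20 tested, and the 15.0% called lies near the background of 10.4%. Myc, the growth transcription factor, read 2.32, 2.21, 3.43, 1.67 and 2.25 CPM at ZT12 and 6.33, 15.3, 4.53, 8.08 and 6.16 CPM at ZT16, without overlap and with ZT16 replicate 2 the highest (log2 fold change 1.55, SE 0.33, adjusted p = 0.001). Of 20 cell cycle genes 1 rose and 1 fell. The gene that rose was the inhibitor Cdkn1a (p21), from 2.80 ± 0.538 to 5.62 ± 1.18 CPM (log2 fold change 0.85, SE 0.28, adjusted p = 0.036). Its adjusted p lay between 0.054 and 0.097 when any of ZT12 replicates 1, 3, 4 and 5 or ZT16 replicates 1, 4 and 5 was left out.

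The lists of the basic machinery are read beside the 10.4% called over all genes tested. By edgeR, cytoplasmic ribosomal proteins gave 0 of 79 called, nuclear-encoded respiratory chain subunits 0 of 78, mitochondrially encoded mRNAs 0 of 7 and extracellular matrix genes 0 of 18, with medians of 0.017, 0.033, 0.063 and 0.13. At an unadjusted p under 0.05 these counts were 1, 3, 0 and 3, DESeq2 called 0 in each, and limma-trend called 1 respiratory chain gene and 0 in the others. Mitochondrial ribosomal proteins gave 2 rises and 2 falls of 77 (5.19% called). Ribosome biogenesis gave 2 rises and 3 falls of 22 (22.7%), with the polymerase I subunit Polr1b higher (0.24, adjusted p = 0.0057) and nucleolin, Ncl (-0.19, adjusted p = 0.0059), and nucleophosmin, Npm1 (-0.21, adjusted p = 0.0038), lower. Interferon-inducible genes gave 1 rise and 0 falls of 18, the antiviral gene Rsad2 (0.52, adjusted p = 5.6e-06). Autophagy and lysosome genes gave 1 rise and 2 falls of 18 (16.7%), with Wipi1 falling most (-0.44, adjusted p = 2.6e-04), and polyamine synthesis 0 rises and 1 fall of 9 (11.1%). Without the 2 libraries that stood apart, the number called was lower by more than 1.5 times in the lists of fasting and PPAR targets (1), sodium and potassium transport (2), ribosome biogenesis (2), mitochondrial ribosomal proteins (2), the cell cycle (0) and polyamine synthesis (0). It was lower by 1 gene in the lists of clock protein turnover, immediate early genes, fatty acid synthesis, insulin and FOXO-responsive genes, water transport, NAD, NRF2, heme and iron, and autophagy. In the fit of the 10 libraries alone, no call was left in the lists of cold-inducible, insulin and FOXO-responsive, sodium and potassium transport, organic ion transport, calcium, heme and iron, polyamine and mitochondrial ribosomal protein genes.

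Beyond the lists, the genes that fell most with groups apart included Upp2, a uridine phosphorylase, at 54.9, 50.2, 39.9, 65.5 and 47.0 CPM at ZT12 and 16.7, 22.3, 24.8, 19.9 and 16.6 CPM at ZT16 (log2 fold change -1.27, SE 0.12, adjusted p = 1.2e-10). Mthfd1l, a mitochondrial enzyme of folate metabolism (-1.19, adjusted p = 3.1e-06), the lectin-like gene Clec2h (-1.18, adjusted p = 1.8e-04), the cytochrome P450 gene Cyp2j8 (-1.47, adjusted p = 0.0015), Rnf212b (-1.28, adjusted p = 3.1e-04) and Als2cr12 (-1.54, adjusted p = 2.5e-06) completed that group together with the clock genes. Rnf24, a RING finger gene, combined a large fall with high counts. It read 465, 290.0, 562, 946 and 313 CPM at ZT12 and 156, 232, 273, 222 and 191 CPM at ZT16, widely spread at ZT12 with replicate 4 the highest (log2 fold change -1.14, SE 0.25, adjusted p = 0.0012). Within batches 2, 3 and 6 its log2 difference was -0.77, -0.50 and -2.17, and replicate 4 of ZT12 was the library of batch 6. Among the rises, the histone gene Hist2h3c2 went from 0.513 ± 0.158 to 2.44 ± 0.781 CPM (log2 fold change 2.34, SE 0.35, adjusted p = 3.2e-06), with reads that near-identical histone genes may share.

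The most strongly counted gene to change at least 1.5-fold was Ndrg1, a gene induced by stress and hypoxia. It read 1231, 1064, 2007, 1231 and 1244 CPM at ZT12 and 2378, 2177, 2581, 2926 and 3250.4 CPM at ZT16. ZT12 replicate 3 was the highest of its group, and all ZT16 libraries lay above it (log2 fold change 0.99, SE 0.15, adjusted p = 2.4e-06).

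The other 4 times of day, each with 5 control mice of their own, place the 4 h step within the day. Of the 787 genes higher at ZT16, 337 had their highest mean of the 6 times there, 215 at ZT0 and 211 at ZT20. Of the 836 that were lower, 570 had their highest mean at ZT12, 152 at ZT4 and 106 at ZT8, and 365 had their lowest at ZT16. The choice of the genes fixes part of this pattern, because a gene higher at ZT16 cannot peak at ZT12. Over ZT0, 4, 8, 12, 16 and 20, mean Arntl was 48.4, 10.3, 2.73, 2.77, 21.5 and 47.2 CPM, so ZT12 lay in its trough and ZT16 on its rising side. Mean Nr1d1 was 16.6, 74.5, 50.1, 23.6, 6.54 and 4.16 CPM, already past its highest value at ZT12. Mean Per1 was 12.1, 20.5, 32.1, 43.3, 22.5 and 13.4 CPM and was highest at ZT12. Mean Hspa5 was 830.1, 515, 518, 429, 949 and 763 CPM, with its lowest value at ZT12 next to its highest at ZT16.

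**Figure D4:**
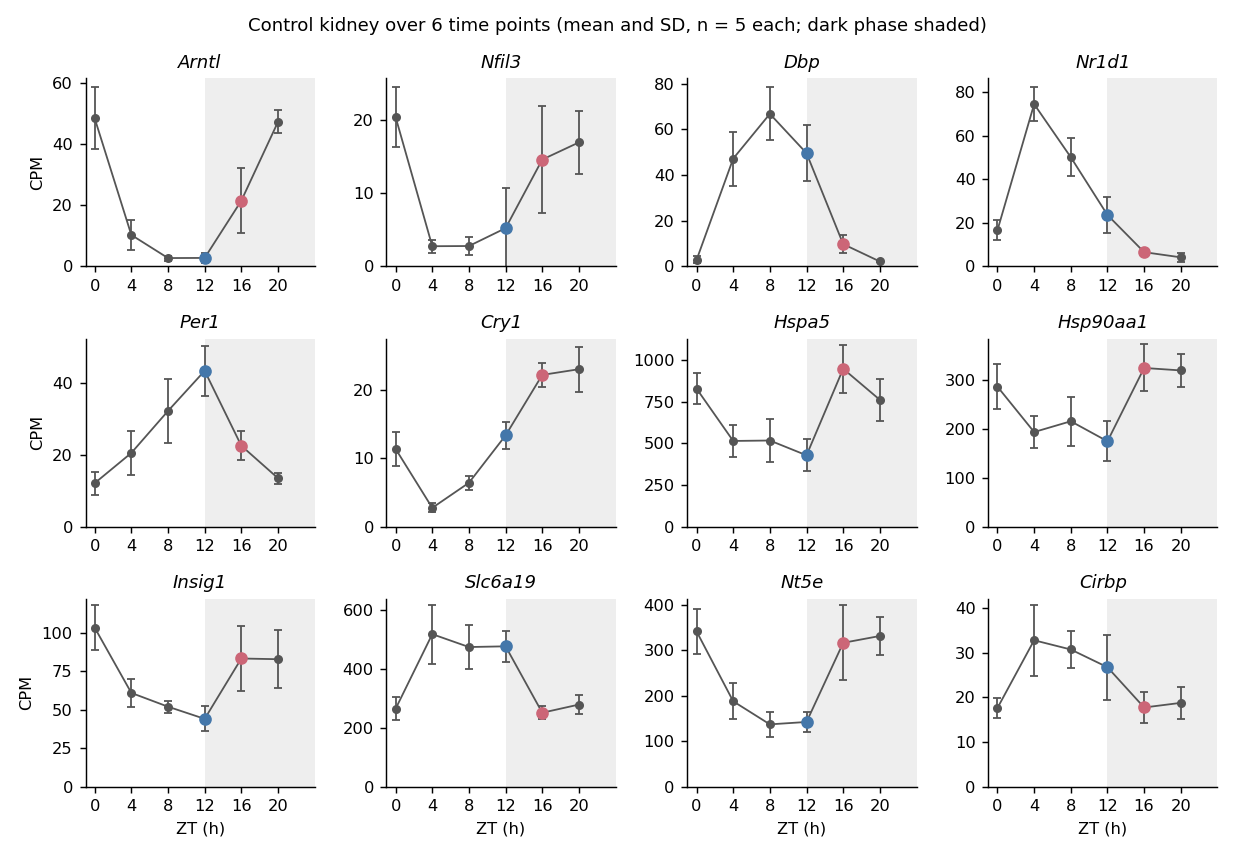
Mean CPM with SD (n = 5 control mice per time) of 12 genes over ZT0 to ZT20, with ZT12 in blue, ZT16 in red and the dark phase shaded. Arntl and Nfil3 climb after ZT12, Dbp and Nr1d1 decline, and Hspa5, Hsp90aa1, Insig1 and Nt5e go from their lowest or near-lowest mean at ZT12 to a high level at ZT16; the lower SD bar of Nfil3 at ZT12 is cut off at 0.

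The cKOt libraries at the same times, 5 and 5, share no sample with the control comparison, so the size of the ZT12 to ZT16 change could be compared between genotypes. In cKOt 1976 genes were called (12.7%). Of the 1623 genes called in control, 1502 (92.5%) had the same sign in cKOt, beside 67.6% of all genes tested, and 765 were called in both in the same direction (47.1% of the control calls and 38.7% of the cKOt calls). A test of the difference itself, the interaction of genotype and time, was passed by 56 genes, 0.36% of those tested. In 46 of them the log2 fold change was higher in control. The count of 56 became 22 without the unwanted-variation factors, 24 with batch in their place and 88 with DESeq2. A change that passed in control and not in cKOt was not taken as a difference without this test.

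Among genes that passed this test with a mean of at least 1 CPM over both genotypes at these times, Arntl and Npas2 had the largest differences. Arntl is itself the gene floxed in these mice. Arntl read 20.1, 17.5, 14.6, 16.5 and 18.2 CPM in the cKOt libraries at ZT12 and 20.3, 20.2, 21.6, 20.9 and 19.6 CPM at ZT16, so both times lay above the control ZT12 level, and the change was 0.30 ± 0.22 (SE) against 3.00 ± 0.26 in control (difference 2.70, SE 0.33, adjusted p = 1.1e-06). The counts cover the whole gene and the whole kidney and do not check the deletion of the floxed segment. For Npas2 the cKOt mean was 43.3 CPM at ZT12 and 48.3 CPM at ZT16, and the change differed by 2.42, SE 0.43, adjusted p = 0.0012. By contrast, Dbp fell by 2.05 on the log2 scale in cKOt from a lower level (13.7 ± 2.10 to 3.91 ± 1.06 CPM), and its difference between genotypes was -0.50, SE 0.29, adjusted p = 0.61. Ciart (-0.93, SE 0.51, adjusted p = 0.58) and Nr1d1 (-0.31, SE 0.35, adjusted p = 0.83) gave no difference that passed, which does not show that the changes were equal.

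Several other genes rose in control and had a higher ZT12 mean in cKOt. Slc16a1 was at 133 ± 28.8 CPM at ZT12 and 121 ± 22.1 CPM at ZT16 in cKOt (difference of change 1.37, SE 0.22, adjusted p = 3.2e-04), Ndrg1 at 4211 ± 164 CPM at ZT12 and 3489 ± 244 CPM at ZT16 (1.27, SE 0.20, adjusted p = 2.3e-04) and Dtx4, a ubiquitin ligase of the Notch pathway, at 57.8 ± 7.08 CPM at ZT12 and 57.9 ± 8.33 CPM at ZT16 (1.24, SE 0.25, adjusted p = 0.0048). In control Dtx4 rose from 11.0 ± 5.57 to 25.6 ± 6.79 CPM, with ZT12 replicate 3 within the ZT16 range. Nt5e was at 358 ± 49.7 CPM at ZT12 and 411 ± 60.8 CPM at ZT16 in cKOt (0.94, SE 0.18, adjusted p = 0.003). Myc was at 9.68 ± 5.23 CPM at ZT12 and 8.75 ± 3.25 CPM at ZT16 in cKOt (2.01, SE 0.43, adjusted p = 0.012) and Cdkn1a at 21.4 ± 4.91 CPM at ZT12 and 15.6 ± 1.73 CPM at ZT16 (1.48, SE 0.34, adjusted p = 0.025). Upp2, which fell in control, was lower in cKOt at both times (23.7 ± 5.93 CPM at ZT12 and 15.2 ± 1.48 CPM at ZT16, difference -0.78, SE 0.17, adjusted p = 0.018).

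For 3 of the genes with the largest differences the control change did not pass. Fga, the fibrinogen alpha chain, was at 202 ± 66.2 CPM at ZT12 and 99.3 ± 13.8 CPM at ZT16 in cKOt and at 19.3 ± 1.37 CPM at ZT12 and 27.1 ± 10.00 CPM at ZT16 in control (difference 1.42, SE 0.33, adjusted p = 0.027). The log2 fold change of Gm42047 was -1.52 ± 0.31 (SE) in cKOt and 0.13 ± 0.29 in control (1.65, SE 0.41, adjusted p = 0.048), and that of Ccdc151, a gene of motile cilia, 0.97 ± 0.22 and -0.27 ± 0.20 (-1.24, SE 0.29, adjusted p = 0.031). In the mitochondrial fatty acid oxidation list 8 of 18 genes fell in cKOt (background 6.34%) and 1 in control, and 2 passed the test of the difference: Cpt2 (0.56, SE 0.13, adjusted p = 0.027) and Acadl (0.37, SE 0.089, adjusted p = 0.038).

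The ER and heat shock lists held many rises in both genotypes. In cKOt 22 of 24 ER folding genes and 13 of 20 heat shock genes rose (background 6.37%), with medians of 0.54 and 0.61, and 0 genes of either list passed the test of the difference. Hspa5 went from 336 ± 18.9 to 918 ± 156 CPM in cKOt (-0.30, SE 0.20, adjusted p = 0.68 for the difference) and Hsp90aa1 from 142 ± 10.5 to 247 ± 16.2 CPM (0.083, SE 0.17, adjusted p = 0.92). Slc6a19 fell by 0.95 on the log2 scale in cKOt, beside the fall of 0.92 in control (0.027, SE 0.15, adjusted p = 0.98).

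**Figure D5:**
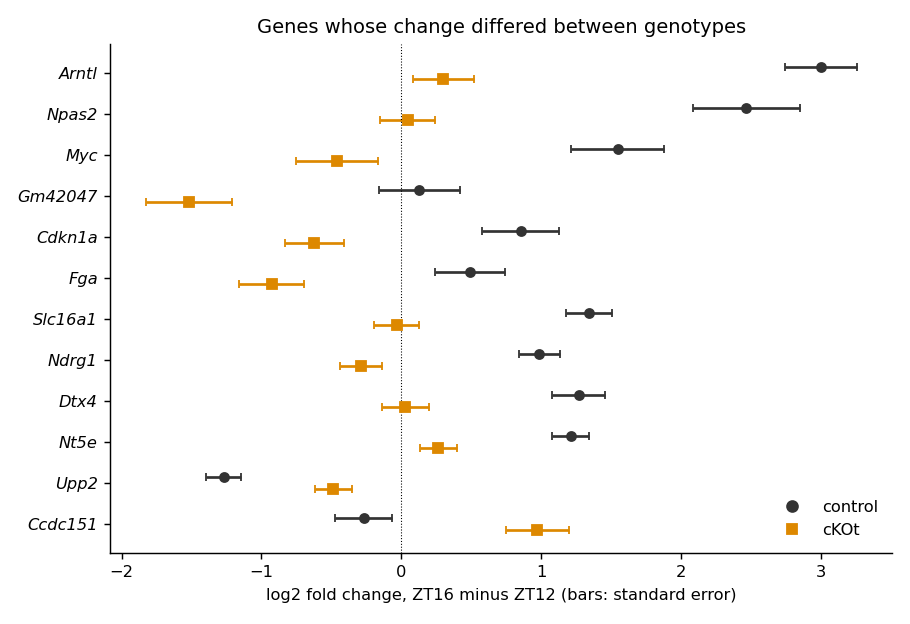
Log2 fold change from ZT12 to ZT16 with its standard error (horizontal axis) in control (circles) and cKOt (squares) for 12 genes that passed the test of the difference between genotypes. Arntl, Npas2, Slc16a1 and Dtx4 rose in control and lie near 0 in cKOt, while Gm42047 and Ccdc151 lie near 0 in control and away from it in cKOt.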

How the data were processed

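RNA from 1 frozen kidney piece per mouse was sequenced as stranded poly(A) libraries (TruSeq, from 200 ng). Per the labels and the study's methods, the authors trimmed reads with cutadapt 1.8, aligned them to GRCm38 with STAR 2.5.3a and counted them per Ensembl gene with HTSeq 0.9.1; the strand setting of the counting is not given in the sources used here. The deposited values were raw counts of reads for 55335 genes. The 5 summary lines at the end of each file were left out of library sizes and tests. Among them, reads in no gene came to 7.17% to 9.01% in the 10 libraries. The base of that share was the gene counts together with reads in no gene and ambiguous reads. Symbols and coordinates came from the GRCm38 annotation, and start-site sequences from RefSeq (GRCm38.p6).

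The filter kept the 15546 genes that reached 1 CPM in any library. Following the study, 2 factors of unwanted variation (RUVs, from replicate differences) were estimated, and all 60 libraries in 12 groups were fitted with edgeR 4.0.16 (TMM, quasi-likelihood test, R 4.3.3) with Benjamini-Hochberg adjustment over all genes. The contrasts were control ZT16 against ZT12, the same in cKOt, and their difference. The steps were tested on simulated data with known changes. Beside 2 random unwanted factors, those data gave all genes the same spread between mice and set no batch or library apart. The simulation therefore does not cover batches or outlying libraries. Alternatives were DESeq2 1.42.0, limma-trend (limma 3.58.1), other scaling, filters, factors, sample sets, a replicate block, the batch of the study's sample table as a term, and each library left out. Leaving out both libraries that stood apart was added after seeing the data.

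The clock genes, the 12 largest rises and 12 largest falls without overlap (mean of at least 1 CPM), the 6 most strongly counted genes changed at least 1.5-fold, up to 3 rises and falls per list and the 10 largest genotype differences could be named, and uncalled list members with their values; some genes that met these rules are not reported here. Lists and members were chosen with earlier results of these data known.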

Additional observations from a re-analysis of the deposited data

Results flagged for a closer look

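In 18 of 190 groups of 5 libraries tested, 1 library stood far from the other 4 by Dixon's ratio, which chance gives in about 1 group in 20, and 1 library can account for several of them. ZT12 replicate 3 stood apart in Arntl (5.51 CPM, others 1.93 to 2.32), Dtx4 (20.6, others 6.68 to 10.2) and Ndrg1 (2007, others 1064 to 1244). All 3 genes were higher at ZT16. ZT12 replicate 2 was highest in Hmox1 (40.7 CPM, others 21.3 to 26.8), Hsp90aa1 (246, others 146 to 167), Hspa1a (22.1, others 2.98 to 4.61) and Per2 (126, others 89.2 to 98.5).

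ZT16 replicate 1 was highest in Fasn (152 CPM, others 73.3 to 88.6), Srebf1 (74.5, others 38.0 to 40.4) and Mt1 (11.2, others 6.17 to 7.56), and lowest in Pck1 (2714, others 3952 to 4109). It was also the library whose first unwanted-variation factor, -2.77, lay outside that of its group (-0.25 to 0.35). ZT16 replicate 4 was highest in Gabarapl1 (502 CPM, others 436 to 444), Hspa4l (125, others 82.7 to 94.1) and Slc6a18 (773, others 608 to 632). ZT16 replicate 2 was highest in Cyp2j8 (0.945 CPM, others 0.470 to 0.586) and ZT16 replicate 5 in Hspa5 (1196, others 821 to 918). The gene count total of ZT12 replicate 4, 19190706, was above the other 4 of its group (18145854 to 18240675).

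The change from ZT12 to ZT16 differed between control and cKOt, in edgeR's test of the interaction with Benjamini-Hochberg adjustment, for 14 of the genes reported. The differences, control minus cKOt on the log2 scale, were 2.70 for Arntl, 2.42 for Npas2, 2.01 for Myc, 1.65 for Gm42047, 1.48 for Cdkn1a, 1.42 for Fga, 1.37 for Slc16a1, 1.27 for Ndrg1, 1.24 for Dtx4, 0.94 for Nt5e, 0.56 for Cpt2 and 0.37 for Acadl. They were -1.24 for Ccdc151 and -0.78 for Upp2. Adjusted p-values ran from 1.1e-06 (Arntl) to 0.048 (Gm42047).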

How the results depend on the processing

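The count of called genes was 1623 and moved by more than 1.5 times in 2 settings: 538 (295 higher, 243 lower) in a fit of the 10 libraries alone without unwanted-variation factors, and 1072 (564 higher, 508 lower) without ZT12 replicate 4 and ZT16 replicate 1, of which 1010 were among the 1623. Leaving out 1 control library gave 1117 to 1579 called genes, with genes called higher at ZT16 numbering 551 to 759 and genes called lower at ZT16 563 to 824, 204 to 285 changed at least 1.5-fold, and 43 to 56 genes that differed between genotypes. The last count, 56 in the report, was 22 without the factors, 24 with the batch in their place and 88 with DESeq2. The causes were not tested. Whether equal replicate numbers mark a shared origin cannot be decided from 5 same-numbered pairs whose range overlaps that of the others. The correlation of group deviations was between -0.05 and 0.20 (mean 0.063) for these pairs of ZT12 and ZT16 libraries. For other pairs it was between -0.39 and 0.23 (mean -0.017). A replicate block gave 1588 called genes (genes called higher at ZT16 793, genes called lower at ZT16 795), 269 changed at least 1.5-fold and 58 genotype differences.

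Over the log2 fold changes of 91 reported genes, 2093 alternative values were computed; 2030 kept their direction and side of the threshold, 43 lost the call, 9 gained it and 11 changed sign. Clock, Tfrc, Mt1 and Mt2 did not pass without the factors, and 14 genes, among them these, Nfil3 and Cirbp, did not in the 10 libraries alone. A cKOt ZT16 library that the study's table marks for removal is among the 60, and without it 1610 genes were called and 57 differed between genotypes. The sign changes were all in genes that did not pass. The log2 fold change of Per2 was 0.017 without the factors, 0.055 with batch as a term, 0.016 in the 10 libraries alone, and between -0.081 and 0.091 with 1 library left out, above 0 without ZT12 replicate 2 (0.091), ZT16 replicate 4 (0.034) or ZT16 replicate 5 (0.053). The log2 fold change of Timeless was 0.060, 0.022 and 0.061 in the first 3 of these settings. With 1 library left out, the log2 fold change of Hspa1a ran from -0.59 to 0.59 (without ZT12 replicate 2), and the log2 fold change of Gm42047 from -0.031 (without ZT16 replicate 4) to 0.27. Only 3 of the 6 batches held both times, so batch and time were partly confounded.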

Other observations

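Some genes outside the lists also had a change from ZT12 to ZT16 that differed between control and cKOt. Those named here were picked after their values were seen, and no shared function was tested. Clpx, the ATPase subunit of a mitochondrial protease, had a difference of 0.89 on the log2 scale (SE 0.13, adjusted p = 1.7e-05, edgeR). Others whose change was higher in control were Acsl1, an acyl-CoA synthetase (0.72), Abcd3, a peroxisomal fatty acid carrier (0.47), Pxmp4 of the peroxisomal membrane (0.57), Cluh, which binds mRNAs of mitochondrial proteins (0.35), and the mitochondrial anchor Akap1 (0.46). In the other direction stood Tnfaip8 (-0.81), the mitochondrial adenylate kinase Ak4 (-0.59) and Dgat2, an enzyme of triglyceride synthesis (-0.32).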
